A study of Mus musculus with 16 samples.

Results

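The genes described here build and bind the cell's skeleton: actins and their binding proteins, tropomyosins, myosins, tubulins and keratins, together with the annexins and the S100 proteins. They were chosen by gene symbol alone, as every probe with a single symbol that begins with a family prefix. The prefixes were those of actins (Acta, Actb, Actc, Actg), actin-related and actin-binding proteins (Actn, Actr, Arpc, Tmsb, Pfn, Cfl), tropomyosins (Tpm and a digit), tubulins (Tuba, Tubb, Tubg), myosins (Myl, Myh), keratins (Krt), annexins (Anxa) and S100 proteins (S100a). The rule found 79 genes on 83 probes, of 6734 named genes on 9596 probes. A further 2 probes that carry several symbols matched it and were not used. The tested RNA came from livers of 8 female APOE3Leiden mice, a strain that carries a human apolipoprotein E variant as a transgene, fed 0.04% cafestol and 0.02% kahweol for 4 weeks from an age of 10 weeks. Both were mixed into a Western-type diet that held, in each 100 g, 0.25 g of cholesterol and 15 g of fat. Cafestol and kahweol are diterpenes of unfiltered coffee. The reference RNA came from livers of females of the same strain on the same diet without the diterpenes (7 mice, not named one by one in the labels), so that every sample carried the transgene and the Western-type diet. Each treated liver was hybridised against the control RNA on 2 cDNA arrays, with the treated RNA in Cy5 on all 16 and 0 arrays with dyes swapped. The identifiers of 4 treated mice begin with SY and those of the other 4 with TP, and the labels do not say what these letters mark.

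Actin filaments, microtubules and keratin filaments are polymers that shape a cell, move its vesicles and hold it to its neighbours. In liver, hepatocytes keep actin and microtubules under the membrane of the bile canaliculus, and their intermediate filaments are made of simple keratins. Smooth muscle actin marks activated stellate cells and vessel walls, and bile duct cells carry keratins that hepatocytes lack. Annexins bind membrane lipids when calcium rises, and S100 proteins are small calcium sensors, some of which pair with annexins.

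The authors deposited a log2 ratio of the 2 channels for each spot, called the diet ratio below. The labels do not say which diet is on top, so values are given with their deposited sign and no gene is said to have gone up or down with the diet. For orientation, the transferase gene Gstm1 lay at -2.48 ± 0.23 and the bile acid enzyme gene Cyp7a1 at 1.56 ± 0.38 (mean ± SD, n = 8 mice). Arrays held 8094 to 9314 values each, with a median of 0 on every array. All values were logs of ratios with 1 decimal, with 0.14 as the smallest step from 0, and 31.8% of them were 0. No spot brightness was used, so neither the level of a gene nor its distance from background is known. The 2 arrays of a mouse correlated at r = 0.761 to 0.913 over genes, and arrays of different mice at 0.163 to 0.811. Among the members, the 2 arrays of a mouse differed by 0.04 to 0.09 on average in 7 mice and by 0.14 in SY518Z, whose arrays carry different codes in their titles (bl7 and c3z). The other SY arrays are all c3z and the TP arrays all bl7.

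Values of the 2 arrays were averaged for each mouse, and the mean over mice was tested against 0 with limma, a linear model with moderated variance, with Benjamini-Hochberg adjustment over all 8348 genes and unnamed probes measured in at least 6 mice. A gene is called at an adjusted p under 0.05. The test leaves out the spread between control mice, which share 1 RNA. Of the 79 genes, 75 were tested, and S100a4, Krt10, Actr5 and Krtap22-2 were measured in too few mice. The test called 46 of the 75, 40 negative and 6 positive, and left 29 uncalled. Over all genes and probes tested, 43.4% were called, 25.4% negative and 18% positive, so the 53.3% of members called negative stood above the share on the array. The median diet ratio was -0.12 over the members and -0.02 over all tested. Of the 75, 23 were called with a mean of 1.2-fold or more (30.7%, against 8.23% over all tested), and 5 had a mean of 1.5-fold or more on the negative side (6.67%, against 0.467%). At the other end, 8 called members had a mean smaller than 1 step of the array scale. Of the 40 called negative, 25 lay below 0 in every mouse.

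**Figure D1:**
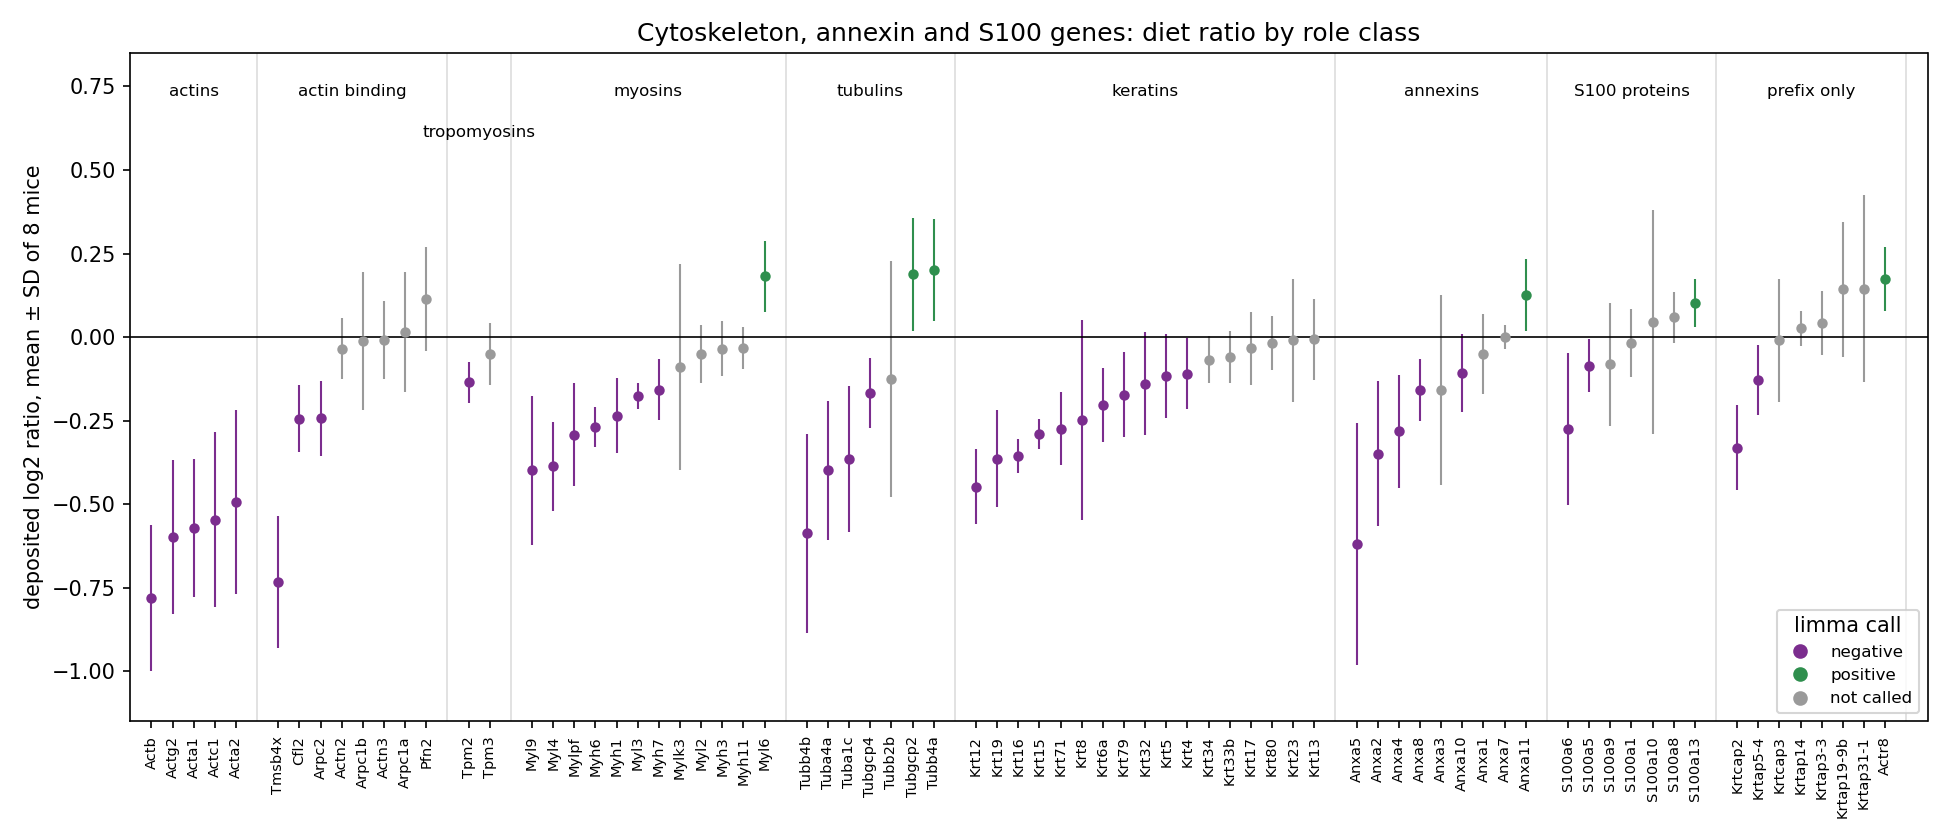
Diet ratio of the 75 tested members, grouped by role, as the mean ± SD (log2) over 8 mice (7 for Mylk3 and Krtap31-1), in purple where called negative, green where called positive and grey where not called. All 5 actins lie at or below -0.49, and the 6 positive calls do not exceed 0.20.

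**Figure D2:**
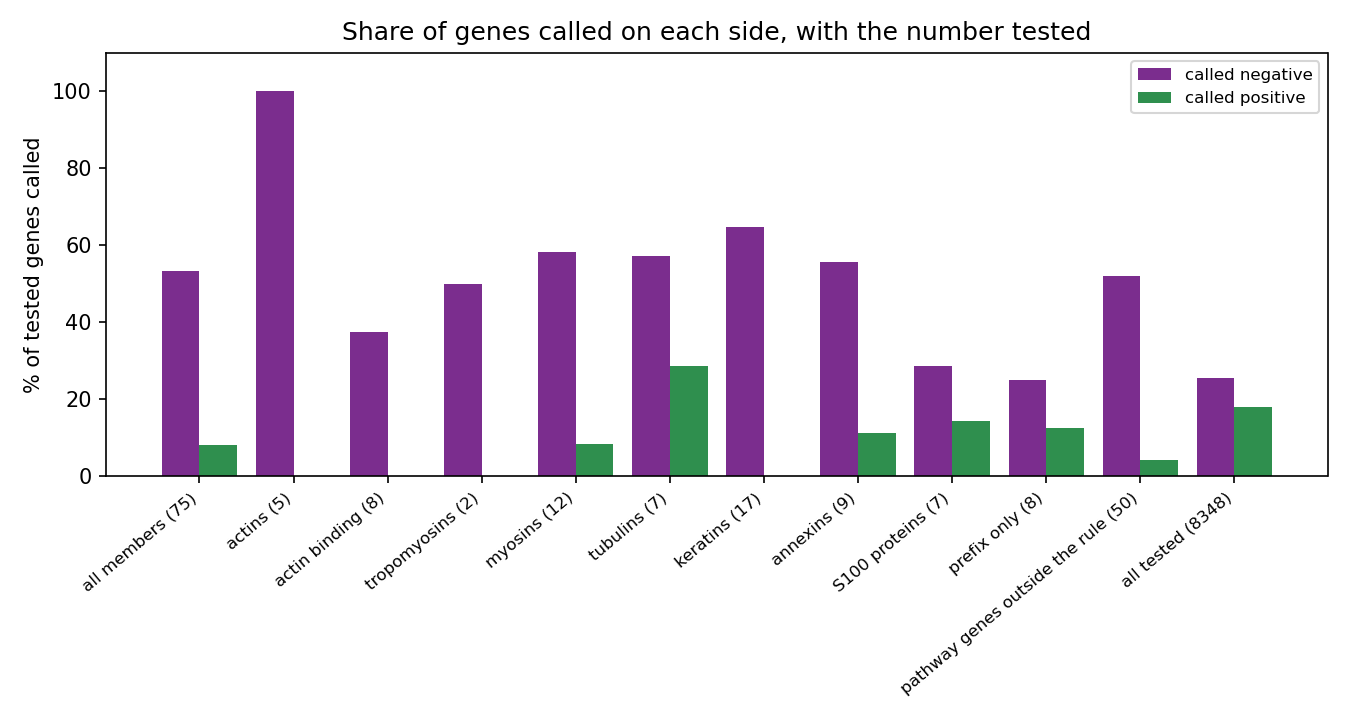
Percent of tested genes called negative (purple) and positive (green) in each role class, in the 50 pathway genes outside the naming rule and over all 8348 tested, with the number tested in brackets. The members reach 53.3% on the negative side, against 25.4% over all tested.

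The actins stood farthest from 0 as a class, with all 5 called negative and a median of -0.57. Actb, the non-muscle beta actin found in every cell, was lowest. Its diet ratio was -1.04, -0.85, -0.81 and -0.93 in SY518Z, SY521RL, SY522ROB and SY524ROB+L, and -0.68, -0.998, -0.53 and -0.43 in TP4163, TP4168, TP4205 and TP4215. It was negative in 8 of 8 mice, and the SY and TP ranges overlapped. The mean of -0.78 ± 0.22 (SD, n = 8) is a 1.72-fold difference between the channels (limma, adjusted p = 5.14e-06).

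The muscle actins followed closely. Actg2, the gamma actin of gut smooth muscle, ranged from -0.96 to -0.26 with a median of -0.65 (mean -0.60 ± 0.23, limma adjusted p = 3.91e-05). Acta1 of skeletal muscle ranged from -0.85 to -0.20 (mean -0.57 ± 0.21, limma adjusted p = 2.75e-05). Actc1 of heart ranged from -0.93 to -0.14 (mean -0.55 ± 0.26, limma adjusted p = 0.000152). Acta2, the smooth muscle actin of vessel walls and activated stellate cells, ranged from -0.89 to 0.00 (mean -0.49 ± 0.28, limma adjusted p = 0.000401). Across the 5 actins, SY518Z was the lowest mouse 5 times and TP4215 the highest 5 times. Neighbours in this order differed by less than the SD between mice. Every actin had a lower mean in SY mice (-0.90 to -0.65) than in TP mice (-0.66 to -0.34), but none was called between them (limma, adjusted p = 0.0728 to 0.196). In the TP mice alone, Acta2 was not called (adjusted p = 0.0727), while the other 4 actins were. Actin coding sequences are nearly alike, and a cDNA probe for one can bind RNA of another, so the 5 values are not 5 separate measurements. How much such cross-binding adds was not tested.

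**Figure D3:**
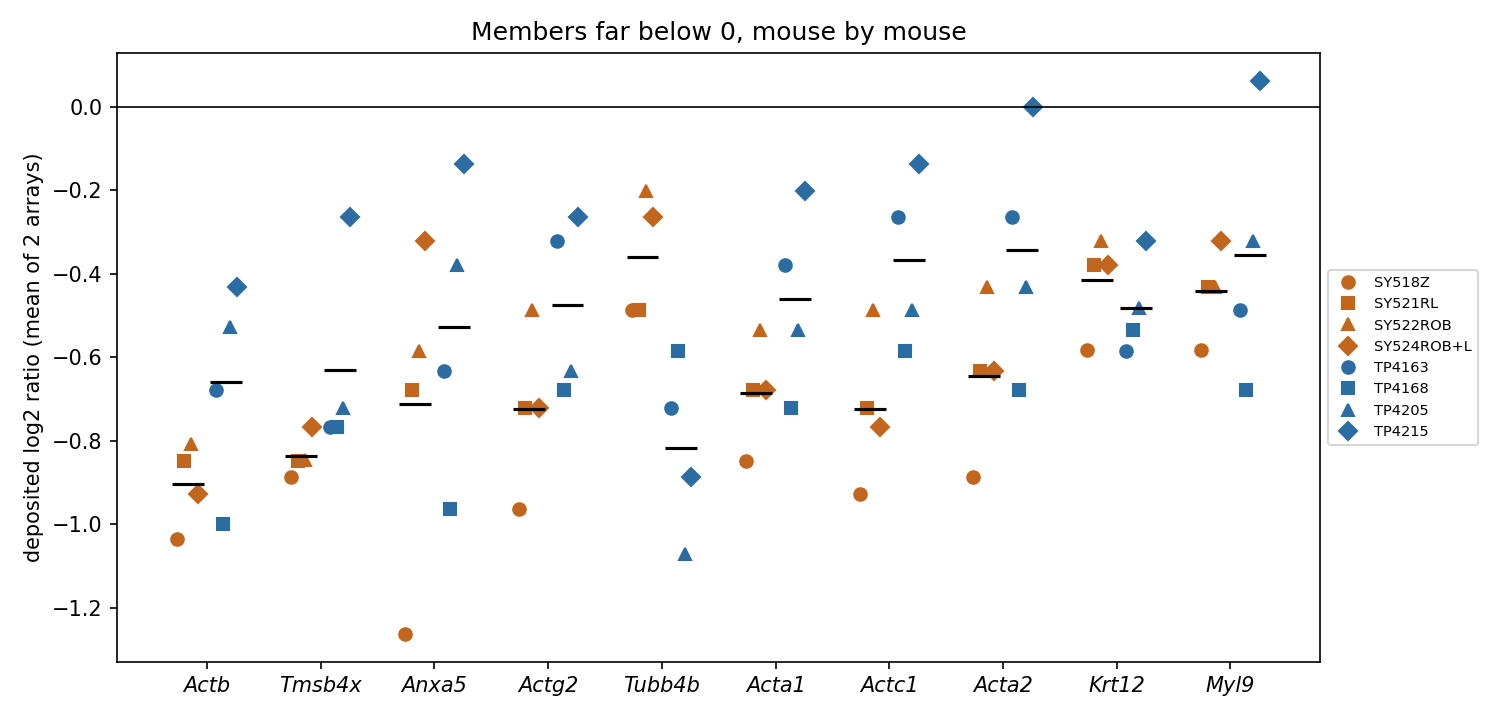
Diet ratio (log2, mean of 2 arrays) in each of 8 mice for 10 members far below 0, with SY mice in orange left of TP mice in blue and a bar at the mean of each set. TP4215 is the highest mouse for all 5 actins and for Tmsb4x, Anxa5 and Myl9, and Tubb4b is lower in each TP mouse than in each SY mouse.

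Muscle-type actin and myosin genes are textbook targets of serum response factor, which binds the CArG box, a 10-base DNA element with 2 C, then 6 bases that are each A or T, then 2 G. The letters of this box were searched in the 250 bases before the start that RefSeq's promoter table gives each gene (build GRCm38.p6). There 62 of the 79 members had an entry. Actb and S100a10 had none and were not searched. The box reads as a box on both strands. It was found in 6 of these 62 genes (9.68%) and in 439 of all 27025 genes in the table (1.62%). Among members with an entry, it was in 5 of the 33 called negative (Acta1, Actc1, Krt12, Myl3 and Myl9), 1 of the 4 called positive (Myl6) and 0 of the 22 uncalled. In Krt12 and Myl6 the table's start, and the box with it, lies inside the span of the gene in RefSeq's gene table, and in the other 4 genes the box lies before that span. A match is a description of the letters and not a binding site. The stretches around the box in these 4 genes are shown because all of them were called negative and carry the box ahead of the gene. They are written 5′ to 3′ along the gene's strand, with the box in capitals.
Acta1: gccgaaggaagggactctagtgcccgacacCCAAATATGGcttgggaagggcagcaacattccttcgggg
Actc1: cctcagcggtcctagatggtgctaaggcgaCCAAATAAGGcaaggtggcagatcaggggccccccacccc
Myl9: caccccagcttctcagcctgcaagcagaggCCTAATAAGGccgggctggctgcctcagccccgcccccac
Myl3: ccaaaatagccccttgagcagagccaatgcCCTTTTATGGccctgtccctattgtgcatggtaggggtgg

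These stretches lie at chr8:123894809-123894878 on the minus strand for Acta1, chr2:114052883-114052952 on the minus strand for Actc1, chr2:156775273-156775342 on the plus strand for Myl9 and chr9:110763563-110763632 on the plus strand for Myl3. The box begins 73 bases before the first base of the gene's span in Acta1, 47 in Actc1, 105 in Myl9 and 85 in Myl3. Srf, the gene of serum response factor itself, had a diet ratio of -0.14 to -0.26 in every mouse (mean -0.19 ± 0.04, n = 8). Mrtfa, a coactivator that actin monomers hold in the cytoplasm, had a mean of -0.12 ± 0.11. Both were called negative, as were 52% of the 50 pathway genes tested outside the naming rule. Myh11, a smooth muscle myosin gene, was not called (-0.03 ± 0.06). Whether serum response factor has a part in these ratios was not tested.

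Of the 8 actin-binding genes, 3 were called negative and 5 were not called. Tmsb4x, which encodes a small protein that holds actin monomers in reserve, was second only to Actb among all members. Its diet ratio lay between -0.89 and -0.77 in the SY mice. In the TP mice it was -0.77 in TP4163 and TP4168, -0.72 in TP4205 and -0.26 in TP4215, so 1 TP mouse stood apart from the other 7. The mean was -0.73 ± 0.20 (1.66-fold, n = 8, limma adjusted p = 4.81e-06). Cfl2, the muscle cofilin that severs filaments, had a mean of -0.24 ± 0.10 and was negative in 8 of 8 mice (limma adjusted p = 0.000247). Arpc2, a subunit of the complex that starts filament branches, had the same mean to the second decimal and was negative in 7 of 8 (limma adjusted p = 0.000386). Its partner subunits Arpc1a (0.02 ± 0.18) and Arpc1b (-0.01 ± 0.21) were not called, nor was the profilin gene Pfn2 (0.11 ± 0.16), which was called positive without TP4163 (adjusted p = 0.0232). The alpha-actinin genes of striated muscle, Actn2 and Actn3, had means of -0.03 and -0.01 and were not called. The tropomyosins line actin filaments, and of the 2 measured Tpm2 was called (-0.14 ± 0.06, negative in 8 of 8 mice, limma adjusted p = 0.00268), while Tpm3 had a mean of -0.05.

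Among the 12 myosin genes, 7 were called negative, 1 positive and 4 not, with a median of -0.17. Myl9, the regulatory light chain of smooth muscle and non-muscle myosin, ranged from -0.68 to 0.06, with a median of -0.43. TP4215 was again the highest mouse and the only one above 0. The mean was -0.40 ± 0.22 (limma adjusted p = 0.000472). Myl4, a light chain of atrial and embryonic muscle, was negative in 8 of 8 mice (mean -0.39 ± 0.13, limma adjusted p = 3.88e-05). The light chains and heavy chains of striated muscle were closer to 0. Mylpf of fast muscle had a mean of -0.29 ± 0.15, Myh6 of heart -0.27 ± 0.06, Myh1 of fast muscle -0.24 ± 0.11, Myl3 of slow muscle and heart -0.18 ± 0.04 and Myh7 of the same muscles -0.16 ± 0.09. The light chain gene Myl2 (-0.05 ± 0.09) and the heavy chain gene Myh3 (-0.03 ± 0.08) were not called. The 2 probes of Myl3 gave -0.28 and -0.08, and only the first was called on its own. Myl6, the essential light chain that partners Myl9 in smooth muscle and non-muscle cells, was positive in 7 of 8 mice and 0 in TP4163 (mean 0.18 ± 0.11, limma adjusted p = 0.00208). The Myl6 values ran from 0.00 to 0.32, and Myl9 came into that range in TP4215 alone. Myh11, the heavy chain of smooth muscle, was not called (-0.03 ± 0.06), with its 2 probes at 0.03 and -0.10.

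Of the 7 tubulin genes, 4 were called negative and 2 positive. Tubb4b, a beta tubulin of most tissues, had a diet ratio of -0.49, -0.49, -0.20 and -0.26 in SY518Z, SY521RL, SY522ROB and SY524ROB+L. In TP4163, TP4168, TP4205 and TP4215 it was -0.72, -0.58, -1.07 and -0.89. The 2 sets did not overlap, and the mean over all 8 was -0.59 ± 0.30 (1.5-fold, limma adjusted p = 0.000201). The alpha tubulins Tuba4a (-0.40 ± 0.21) and Tuba1c (-0.36 ± 0.22) were negative in 8 of 8 mice (limma adjusted p = 0.000314 and 0.000774). Tubb4a, a beta tubulin best known from neurons, lay on the other side, from 0.00 to 0.38 (mean 0.20 ± 0.15, limma adjusted p = 0.00502), the highest mean of any member. The gamma tubulin complex, from which microtubules grow, was split: Tubgcp4 was negative in 8 of 8 mice (-0.17 ± 0.11, limma adjusted p = 0.00332) and Tubgcp2 was positive in 7 of 8 (0.19 ± 0.17, limma adjusted p = 0.0111). SY518Z gave Tubgcp2 its highest value, 0.56, while the other 7 mice lay between 0.00 and 0.26. Its 2 arrays disagreed, with 0.85 on the bl7 array and 0.26 on the c3z array. Without SY518Z its mean was 0.13 and still called. Tubb2b was not called (-0.12 ± 0.35). As with the actins, a probe for 1 alpha or beta tubulin can bind RNA of a close relative, so these genes may not be separate measurements. Such cross-binding was not tested.

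Keratins formed the largest class, with 11 of 17 tested genes called negative, 0 called positive and a median of -0.14. By unadjusted p the positive count was also 0, and the highest keratin mean was -0.01. Krt12, best known from the cornea, had the lowest mean and was negative in 8 of 8 mice, from -0.58 to -0.32 (-0.45 ± 0.11, limma adjusted p = 7.24e-06). Krt19, the keratin of bile ducts, ranged from -0.58 to -0.14 (-0.36 ± 0.15, limma adjusted p = 8.59e-05). Krt16 and Krt15, keratins of the epidermis, varied little between mice, with means of -0.36 ± 0.05 and -0.29 ± 0.05. Krt71 of the hair follicle had a mean of -0.27 ± 0.11 and was also negative in every mouse. Krt8, the keratin hepatocytes make most of together with its partner, ranged more widely than these, from -0.58 to 0.20 (mean -0.25 ± 0.30, limma adjusted p = 0.032). Its call was lost on leaving out any of 5 mice (adjusted p = 0.0545 to 0.0909). The other called keratins were Krt6a, Krt79, Krt32, Krt5 and Krt4, with means from -0.20 to -0.11. The 6 not called, Krt34, Krt33b, Krt17, Krt80, Krt23 and Krt13, lay between -0.07 and -0.01. Several of these genes are known from skin, hair or cornea and not from liver, keratins of a type share much of their sequence, and no brightness was used, so whether these spots read liver RNA of the named gene was not tested.

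Of the 9 annexins, 5 were called negative and 1 positive. Anxa5, which binds phosphatidylserine on membranes, was -1.26, -0.68, -0.58 and -0.32 in SY518Z, SY521RL, SY522ROB and SY524ROB+L, and -0.63, -0.96, -0.38 and -0.14 in TP4163, TP4168, TP4205 and TP4215. Every mouse was negative, the sets overlapped, and the span between mice was wider than for any actin. The mean was -0.62 ± 0.36 (1.54-fold, limma adjusted p = 0.000478). Anxa2, which links membranes to actin and pairs with S100a10, had a mean of -0.35 ± 0.22 and was negative in 8 of 8 mice (limma adjusted p = 0.000984). Its 2 probes gave -0.51 ± 0.30 and -0.19 ± 0.20, each called on its own. In the SY mice alone Anxa2 had a mean of -0.23 and was not called (adjusted p = 0.153), against -0.47 in the TP mice, where it was (adjusted p = 0.00635). The difference itself was not called (limma, adjusted p = 0.208). Anxa4, an annexin of secretory epithelia, was negative in 8 of 8 mice (-0.28 ± 0.17, limma adjusted p = 0.00104) and Anxa8 in 7 of 8 (-0.16 ± 0.09, limma adjusted p = 0.00295). Anxa10 had a mean of -0.11 ± 0.12 (limma adjusted p = 0.0433) and lost its call on leaving out any of 7 mice. Anxa11 was positive in 6 of 8 mice (0.13 ± 0.11, limma adjusted p = 0.0179). Anxa3 (-0.16 ± 0.28), Anxa1 (-0.05 ± 0.12), known as an inhibitor of inflammation, and Anxa7 (0.00 ± 0.04) were not called. Anxa3 was called negative without TP4215 (adjusted p = 0.0316).

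The S100 genes stayed close to 0, with a median of -0.02 over the 7 tested. S100a6, a calcium sensor of fibroblasts and epithelia, was negative in 7 of 8 mice, from -0.67 to 0.07 (mean -0.27 ± 0.23, limma adjusted p = 0.00552), and TP4215 was the one mouse above 0. S100a5 (-0.09 ± 0.08, limma adjusted p = 0.0469) and S100a13 (0.10 ± 0.07, limma adjusted p = 0.0178) were called with means under 1 array step. S100a5 lost its call without any of 5 mice and S100a13 without TP4205 (adjusted p = 0.0521). S100a8 and S100a9, the calcium-binding pair that neutrophils carry in bulk, had means of 0.06 ± 0.08 and -0.08 ± 0.18, and S100a1 of heart muscle had a mean of -0.02 ± 0.10. None of these was called over all 8 mice. Without TP4215, where S100a9 was 0.26, S100a9 was called negative (adjusted p = 0.0309). S100a4 was measured in the SY mice alone, where it lay between -0.26 and -0.06. The mean of S100a10 over all mice, 0.04 ± 0.34, hides 2 separate sets of values that are given below.

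A last 10 genes share a prefix with these families but not their function. Actr5 and Actr8 encode actin-related proteins of a chromatin remodeller, and Actr8 was positive in 7 of 8 mice (0.17 ± 0.10, limma adjusted p = 0.002). Krtcap2, named as a keratinocyte-associated protein and known as part of the enzyme that adds sugars to new proteins, was negative in 8 of 8 mice (-0.33 ± 0.13, limma adjusted p = 8.69e-05). Of the keratin-associated hair proteins, Krtap5-4 was called negative (-0.13 ± 0.11, limma adjusted p = 0.0145), and Krtap3-3, Krtap14, Krtap19-9b and Krtap31-1 were not called, nor was Krtcap3. Krtap19-9b was called positive without SY522ROB (adjusted p = 0.0442) or SY524ROB+L (adjusted p = 0.0235). Krtap22-2 and Actr5 were not tested. With these 8 tested genes set aside, the negative calls were 38 of 67.

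Genes of the same pathways that the naming rule does not take, such as motor, capping and adhesion proteins, gave similar counts. Of 56 on the array, 50 were tested, of which 26 were called negative (52%) and 2 positive, with a median of -0.10. The lowest were Dstn, which like cofilin takes filaments apart (-0.34 ± 0.15), and Capzb, a subunit of the protein that caps filament ends (-0.32 ± 0.08). Ezr, which ties actin to the membrane, followed at -0.28 ± 0.07, Rac2, a small GTPase of blood cells, at -0.26 ± 0.07, and Rock1, a kinase that raises myosin light chain phosphorylation, at -0.24 ± 0.12. The positive calls were Capza1, another subunit of the capping protein (0.14 ± 0.06), and Cnn1, the calponin of smooth muscle (0.09 ± 0.09). Capza2, the close relative of Capza1, was called negative like Capzb (-0.13 ± 0.10, negative in 7 of 8 mice, limma adjusted p = 0.0128), so the capping protein genes lay on both sides of 0. Tagln (-0.05 ± 0.11) and Des (-0.04 ± 0.07), both of smooth muscle and stellate cells, were not called.

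The mice did not line up the same way in every class. Over the 23 members that were called negative at 1.2-fold or more, SY518Z was the lowest mouse (ties counted) for 12 and TP4205 for 7, and TP4215 was the highest for 14. The median of the 5 actins in each mouse ran from -0.93 in SY518Z to -0.20 in TP4215. For the 7 tubulins the order differed, with medians of -0.29, -0.10, -0.07 and -0.07 in SY518Z, SY521RL, SY522ROB and SY524ROB+L and of -0.20, -0.14, -0.58 and -0.49 in TP4163, TP4168, TP4205 and TP4215. TP4215 thus had the actins closest to 0 and tubulins far below it.

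Liver tissue was measured whole, so a difference in the number of cells of a type and a difference in RNA per cell cannot be told apart. Of 8 Kupffer cell and macrophage markers, 5 were called negative, with Cd68 lowest at -0.65. The defining markers Adgre1, Clec4f and Marco were not called over all mice (-0.16 to -0.03). Marco had means of -0.50 in SY mice and 0.17 in TP mice, and Adgre1 of -0.18 and 0.13. Neither difference was called (limma, adjusted p = 0.0535 and 0.0502). Clec4f had a mean of -0.05 in both sets. The median of the Kupffer cell and macrophage list was 0.14 in TP4215, the mouse with actins and Tmsb4x nearest 0. In the other 7 mice it lay between -0.38 and -0.14. The other mice did not keep this order. TP4163 had the lowest median of that list, -0.38, and the actin median next nearest 0, -0.32. Of 10 stellate cell and myofibroblast markers, 5 were called negative (Acta2 itself, Col1a1, Col1a2, Pdgfrb and Lrat) and Des, Dcn, Tagln, Rgs5 and Reln were not called; the list's median ranged from -0.29 to 0.00 over mice. Of 4 smooth muscle markers, Acta2 was called negative, Cnn1 positive, and Myh11 and Tagln were not called. Of 5 bile duct markers, Epcam (-0.42) and Krt19 were called negative, Cldn4 (0.40) positive, and Sox9 and Cftr were not called. Cldn4 had means of 0.70 in SY mice and 0.10 in TP mice, a difference that was called (limma, adjusted p = 0.0476). All 5 striated muscle markers were called negative. They were the members Acta1, Myh1 and Mylpf and, from outside the naming rule, Ckm (-0.34) and Tnnt3 (-0.09). Of 5 neutrophil markers tested, Ngp and Camp were called negative, at -0.11 and -0.14. Of 4 hepatocyte markers, Apoa1 (-0.52) and Krt8 were called negative and Alb (0.14) and Ttr were not called. Of 4 endothelial markers Cdh5 and Eng were called negative, of 5 lymphocyte markers Cd52 and Cd8a negative and Cd3d positive, and of 3 mesothelial markers Msln and Krt19 negative and Wt1 positive; the single erythroid marker, Alas2, was not called. The part of these cell types in the members' ratios was not tested.

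The second comparison set the SY mice against the TP mice, with limma on the mouse values of 8240 genes and probes measured in at least 3 mice of each set. It called 8 of 75 members, 4 higher and 4 lower in SY mice. Over all tested, 4.96% were called, 3.86% lower in SY mice and 1.1% higher. In 8 members (10.7%, against 9.89% over all tested) the 2 sets of mouse values did not overlap, a share near that of the whole array, among them Anxa8 and Myh1, which were not called, while the called Tubb2b and Krt8 overlapped. The array code differs between the sets apart from the bl7 array of SY518Z, so the mice and the code can be told apart only through that array.

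S100a10, which in contrast to other S100 proteins needs no calcium and pairs with Anxa2 at the membrane, differed most. Its diet ratio was 0.43, 0.26, 0.32 and 0.38 in SY518Z, SY521RL, SY522ROB and SY524ROB+L, and -0.32, -0.14, -0.38 and -0.20 in TP4163, TP4168, TP4205 and TP4215. Every SY mouse was above 0 and every TP mouse below it. The difference was 0.61, from means of 0.35 ± 0.07 in SY mice and -0.26 ± 0.11 in TP mice (SD, n = 4 each, limma adjusted p = 0.00347). It was called without each mouse in turn (adjusted p = 0.00393 to 0.0306). SY518Z read 0.38 on its bl7 array and 0.49 on its c3z array, both above all 8 TP arrays, which ran from -0.38 to -0.14. With the array code as a term, an alternative chosen after seeing the data, the difference was 0.57 (adjusted p = 0.00176). On the bl7 arrays alone, where SY518Z is the only SY mouse, it was 0.64 and not called (adjusted p = 0.289), and on the first array of each mouse it was 0.61 with an adjusted p of 0.0635. Its partner Anxa2 also had the higher mean in SY mice, at -0.23 ± 0.25, against -0.47 ± 0.11 in TP mice, without passing the test.

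**Figure D4:**
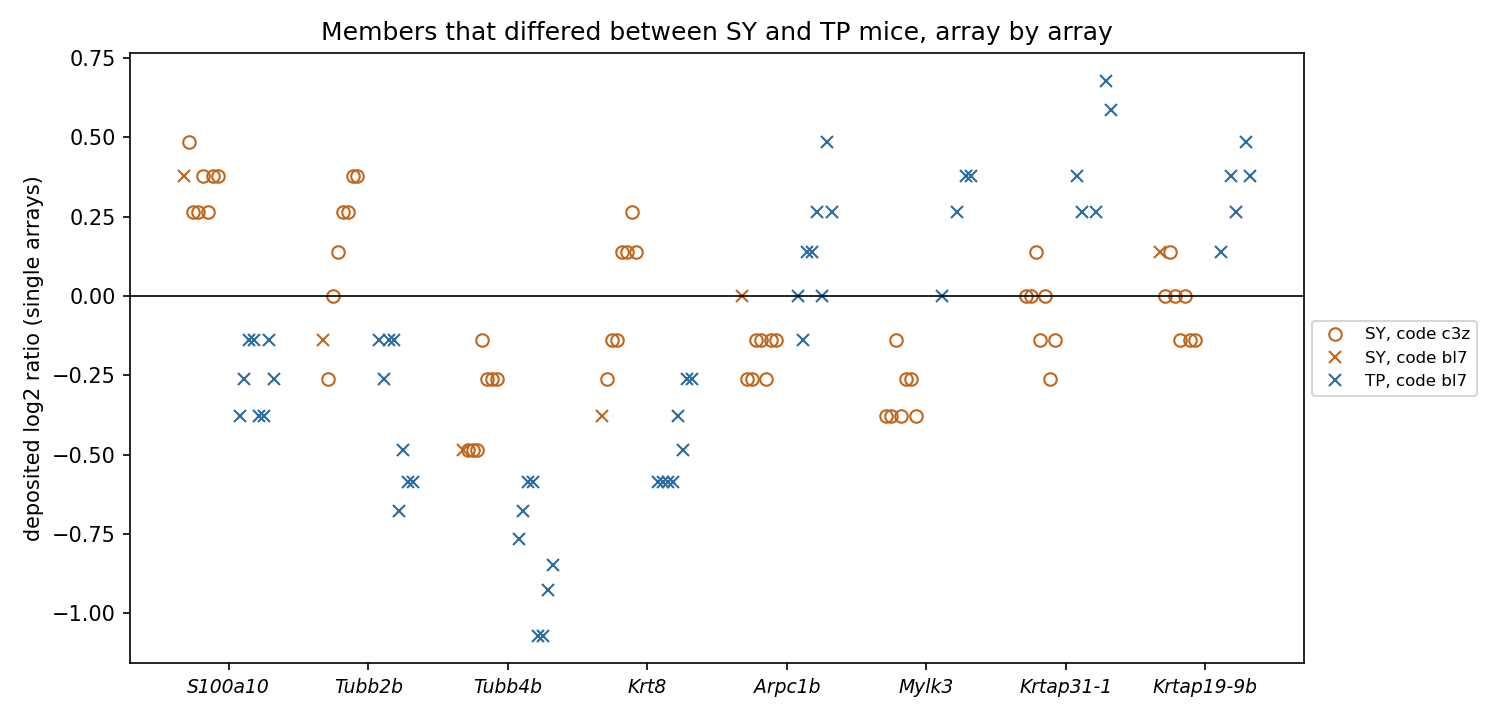
Diet ratio (log2) on each single array for the 8 members called between SY mice (orange, left) and TP mice (blue, right), as open circles for arrays with code c3z and crosses for code bl7. For S100a10 all 8 SY arrays lie above 0 and all 8 TP arrays below it, while for Krt8 the SY cross at -0.38 lies among the TP arrays.

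The other 7 called members were less firm. Mylk3, a kinase of heart myosin light chains, lay between -0.38 and -0.26 in SY mice, against 0.00, 0.26 and 0.38 in TP4163, TP4205 and TP4215. The difference was -0.53 (limma adjusted p = 0.0114) and was not called without TP4205 (adjusted p = 0.0554). The bl7 array of SY518Z has no value for Mylk3, so mouse set and array code cannot be told apart there, nor for Krtap31-1 (-0.46, limma adjusted p = 0.0262). For both genes TP4168 had no value and TP4205 had a value on only 1 array, as had TP4163 for Mylk3. Tubb4b (0.46, adjusted p = 0.0293), Tubb2b (0.50, adjusted p = 0.0495) and Krt8 (0.44, adjusted p = 0.0475) were higher in SY mice, by limma. Tubb2b, a beta tubulin of the developing brain, ranged from -0.20 to 0.38 in SY mice and from -0.58 to -0.14 in TP mice, so the sets overlapped. Krt8 had means of -0.03 ± 0.24 in SY mice and -0.47 ± 0.15 in TP mice. Arpc1b (-0.31, adjusted p = 0.048) and Krtap19-9b (-0.32, adjusted p = 0.0359) were lower in SY mice, again by limma, and their sets did not overlap. The Krtap19-9b values of TP4163, TP4168 and TP4205 each came from 1 array. With the array code as a term, none of Tubb4b, Tubb2b, Krt8, Arpc1b and Krtap19-9b was called (adjusted p = 0.199 to 0.833). That fit called 3 of 73 members, S100a10, Anxa4 and Tubgcp2. The fit told mice and code apart only through the bl7 array of SY518Z, where Tubgcp2 read 0.85 and Anxa4 -0.77. On the c3z array of that mouse they read 0.26 and -0.38. Each of the other 7 members called between SY and TP mice lost its call without at least 1 mouse. Of the 5 alpha and beta tubulins, 4 had a lower mean in TP mice, as had 12 of the 17 keratins tested. All 5 actins had a lower mean in SY mice. Of these genes only Tubb4b, Tubb2b and Krt8 were called, and such counts were not made over all tested. There the median difference (SY minus TP) was 0.02, so means lay slightly lower in TP mice across the array.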

How the data were processed

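Livers of 8 treated mice were measured on 16 two-colour cDNA arrays, 2 for each mouse. Values were deposited as log2 ratios of the channels, recognised from the files. How they were normalized and background-treated, and which channel is on top, is not stated in the labels. Values were used as deposited. Genes were named from the platform annotation, updated through RefSeq (GRCm38.p6, names only, 0 symbols changed): 7407 probes had 1 symbol, 437 several and 1752 none. Probes of a gene were averaged, then the 2 arrays of a mouse, which share 1 RNA. Tests used limma 3.58.1 in R 4.3.3 and were tried on simulated data; figures used matplotlib 3.10.9 in Python 3.11.15. Adjusted p-values cover all features tested (in at least 6 mice; 3 in each set for SY minus TP), at a threshold of 0.05. The members, lists and tests were chosen with earlier results of these data known. The text names called actins, annexins and S100 genes, the farthest from 0 of the other classes, every member called between SY and TP, and the farthest uncalled; the remaining members were named to account for all. Alternatives were other scalings, filters, moderations, single arrays, arrays with the mouse as a random block, single probes, each mouse left out, mouse sets, array codes, a 1.2-fold minimum and a control mixed from 7 mice. Precision is limited by the number of mice and by the shared control RNA.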

Additional observations from a re-analysis of the deposited data

Results flagged for a closer look

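In 4 named members, 1 mouse stood apart from the other 7 by Dixon's test, and chance flags about 1 in 20 groups among the 60 members looked at. TP4215 was at -0.26 for Tmsb4x, against -0.89 to -0.72 in the others, and at 0 for Arpc2, against -0.38 to -0.20. SY518Z was at 0.56 for Tubgcp2 (0.85 and 0.26 on its 2 arrays), against 0.00 to 0.26. TP4163 was at 0.12 for Krtap5-4, against -0.20 to -0.14.

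The diet ratio differed between SY and TP mice (SY minus TP, limma) for 8 members, by 0.61 for S100a10, 0.50 for Tubb2b, 0.46 for Tubb4b and 0.44 for Krt8, and by -0.53 for Mylk3, -0.46 for Krtap31-1, -0.32 for Krtap19-9b and -0.31 for Arpc1b.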

How the results depend on the processing

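The 40 negative and 6 positive members became 34 to 39 and 5 to 7 on leaving out each mouse. Against a minimum of 1.2-fold, limma called 5 negative and 0 positive members (14 and 0 by unadjusted p), and 68 and 55 over all tested. With the control treated as an equal mix of 7 mice, 31 negative and 2 positive were called, and over all tested 1076 negative and 735 positive, against 2119 and 1503. The positive count was 3 in TP mice alone. There the median was -0.085 for actin binding genes, -0.25 for keratins and -0.38 for tubulins. On bl7 arrays alone it was -0.11 for actin binding genes, -0.24 for keratins and -0.21 for myosins. S100a10 had a negative call in TP mice alone (-0.26, adjusted p = 0.0164). The 8 members called between SY and TP mice became 1 (without TP4205) to 18 (without SY518Z) on leaving out each mouse, and 2 without SY521RL, SY522ROB, SY524ROB+L or TP4215. They became 0 on first arrays (21 by unadjusted p, 9 lower and 12 higher in SY mice), 2 on second arrays, 13 on 16 arrays with the mouse as a random block and 3 with the array code as a further term. On bl7 arrays alone they became 0 (6 lower and 3 higher by unadjusted p). The code term and the bl7 arrays were chosen after seeing the data. Other counts moved by at most 1.5 times (the positive count was 4 on c3z arrays alone), and other medians by less than 1 SD over mice. No paired analysis was possible because the tests compare mice with a shared control RNA, and SY and TP mice share no numbers. Over all tested, the 409 called between SY and TP mice became 0 to 1245 over these alternatives. The causes of these shifts were not tested.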
